A study of Mus musculus with 4 samples.

Results

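TRAJ segments are the joining segments of the T-cell receptor alpha locus, and each alpha chain carries exactly 1 of them beside a TRAV (variable) segment and the constant region. They were taken from every contig, a receptor transcript rebuilt from the reads of 1 cell barcode, that was marked productive, belonged to the alpha chain (TRA) and had a TRAJ name. The rule found 36 TRAJ segments among the 123 V and J segments of both receptor chains in the series. They came from 181 productive TRA contigs in 167 cells, out of 655 contigs in 234 cells.

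The study concerned the loss of retinoic acid signals in IDH-mutant glioma, a brain tumor with a changed metabolic enzyme, and how such tumors evade immune cells. C57BL6 mice were given 50000 glioma neurosphere cells at 6 weeks of age, which is shared by both groups. The ATRA group then received all-trans retinoic acid at 10 mg/kg every other day, and the other group received the control treatment. Tumors were taken with normal brain around them and sorted for CD45, so the sort keeps immune cells of any kind, and 10x Genomics 5-prime receptor libraries were made. There was 1 receptor library per group, how many mice went into each is not stated in the labels, and no test between treatments was run. Treatment, library and mice therefore cannot be told apart in any comparison below.

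The alpha locus places its V segments upstream, its long row of J segments in the middle and the constant region downstream. Rearrangement in the thymus starts at the J segments nearest the V segments. If the first join fails or the receptor is not selected, the same allele can be rearranged again, joining a V farther upstream to a J farther downstream, and both alleles are used in most cells. TRAJ numbers run backwards along the locus: a high number lies near the V segments and a low number near the constant region. A low number is therefore commonly read as a sign of repeated rearrangement of an allele.

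In the RefSeq annotation of GRCm38.p6 the TRAJ segments occupy chr14:54155005-54218842, a stretch of 63.8 kb, and their numbers follow the genomic order without exception. The TRAV segments lie upstream and span 1550 kb. The annotation lists 60 TRAJ, of which 51 are J segments and 9 are pseudogenes. All 36 segments found were among the 51, and 0 pseudogenes were found. The 15 J segments not found were TRAJ59, 47, 46, 41, 38, 35, 33, 29, 28, 25, 20, 19, 7, 3 and 2, and 4 of these (TRAJ47, 38, 33 and 25) did occur in nonproductive contigs.

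The CDR3, the loop that spans the V-J junction, shows what a TRAJ brings to the receptor. TRAJ34 had the most distinct rearrangements of any segment in the ATRA library, and 5 of its 10 are shown here because they join 1 J to V segments from different parts of the locus. Capitals mark the bases counted from the 3′ end that belong to the stretch shared by TRAJ34 rearrangements of different TRAV families:
TRAJ34 with TRAV14D-1, ATRA: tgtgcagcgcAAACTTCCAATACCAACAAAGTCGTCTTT
TRAJ34 with TRAV5-4, ATRA: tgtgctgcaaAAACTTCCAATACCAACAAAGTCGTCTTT
TRAJ34 with TRAV9-4, ATRA: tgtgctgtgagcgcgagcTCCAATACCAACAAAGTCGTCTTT
TRAJ34 with TRAV16, ATRA: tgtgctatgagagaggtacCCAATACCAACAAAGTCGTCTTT
TRAJ34 with TRAV9N-4, ATRA: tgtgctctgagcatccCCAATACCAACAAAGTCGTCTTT
The first and second set the shared stretch of 29 bases, and the last 2 matched 23 bases of it. The matched length thus differed between TRAJ34 loops.

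TRAJ53, the segment with most cells over both libraries, was found with a single V segment, TRAV21-DV12, and a single loop of 16 residues. Its 3 nucleotide forms are shown because they differ at few bases, all marked by capitals, and encode the same loop:
TRAJ53 form 1: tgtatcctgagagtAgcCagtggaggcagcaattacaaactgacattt
TRAJ53 form 2: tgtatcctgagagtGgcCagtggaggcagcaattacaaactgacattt
TRAJ53 form 3: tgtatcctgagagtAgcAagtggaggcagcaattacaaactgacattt
Form 1 was in 3 control cells and 10 ATRA cells, form 2 in 0 and 3, and form 3 in 0 and 2. TRAJ26 with TRAV12-2 showed the same thing with 2 forms of 1 loop:
TRAJ26 form 1: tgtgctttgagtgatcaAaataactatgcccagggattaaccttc
TRAJ26 form 2: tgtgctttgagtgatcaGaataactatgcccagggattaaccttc
Form 1 was in 4 control cells and 2 ATRA cells, and form 2 in 0 and 2. Form 1 of TRAJ53 and form 1 of TRAJ26 were the 2 TRA rearrangements that the libraries shared. No cell barcode was shared (0).

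The libraries differed in depth. The control library held 34 productive TRA contigs in 34 cells with 74 unique molecular identifiers (UMIs, 1 per captured RNA molecule), and the ATRA library 147 in 133 cells with 598. The median was 2 UMIs per chain in control (quartiles 1 and 3) and 3 in ATRA (2 and 5). A single UMI supported 11 of the control and 20 of the ATRA contigs. Intervals below are 95%, exact, and cover counting error only. They treat cells as independent, which cells of 1 clone are not.

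The control library used 20 TRAJ segments, from TRAJ58 to TRAJ4, and the ATRA library 35, from TRAJ57 to TRAJ4. They shared 19, which is 95% of the control segments and 54.3% of the ATRA segments. TRAJ58, the segment found nearest the V segments, was in 1 control cell and no ATRA cell, and 16 segments were in ATRA alone. At the control library's number of 34 cells, the ATRA library would be expected to show 21 segments (exact expectation over draws without replacement). The 20 and 35 segments thus become 20 and 21 at equal numbers of cells. Use was thin: 12 of the control segments and 7 of the ATRA segments were seen in 1 cell each, and 16 and 8 rested on 1 distinct rearrangement (the same TRAV, TRAJ and CDR3 nucleotides).

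**Figure D1:**
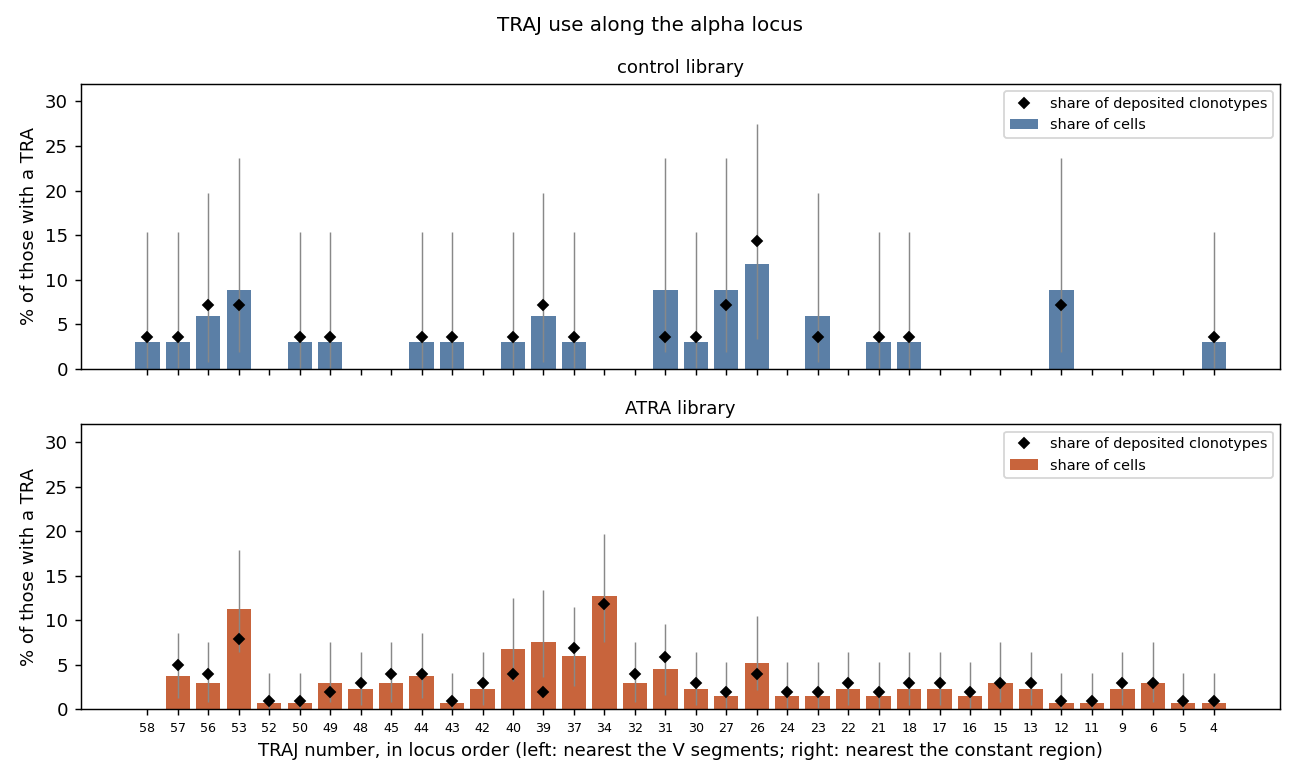
Share of cells (bars, %, with exact 95% binomial intervals as grey lines) and of deposited clonotypes (diamonds, %) with each TRAJ segment, in locus order from the V side (left) to the constant region (right), for the control library (34 cells) and the ATRA library (133 cells). TRAJ34 has no control bar and the tallest ATRA bar, at 12.8%, and the bar of ATRA TRAJ39 stands well above its diamond.

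Along the locus the libraries had like profiles. Segments numbered 41 and above (V-proximal) were found in 32.4% of the control library's cells (11 of 34, interval 17.4 to 50.5) against 34.6% of the ATRA library's (46 of 133, 26.6 to 43.3). Segments 21 to 40 (middle) made up 52.9% in control (18 cells, 35.1 to 70.2) against 53.4% in ATRA (71 cells, 44.5 to 62.1). Segments 20 and below (C-proximal) made up 14.7% in control (5 cells, 4.95 to 31.1) against 18.0% in ATRA (24 cells, 11.9 to 25.6). The middle held the largest share in both libraries and the constant-region end the smallest. The zones differ in size, with 16 annotated J segments in the V-proximal, 19 in the middle and 16 in the C-proximal zone. How much zone size gave to the shares was not tested. Each interval of one library holds the value of the other, and the control intervals are too wide to show a moderate difference. Counted once per deposited clonotype, the shares from the V side to the constant region were 35.7%, 50% and 14.3% in control and 31.9%, 46.9% and 21.2% in ATRA. The V-proximal share was thus lower in control over cells and higher over clonotypes, but the 2 units divide differently. An ATRA cell with 2 productive TRA (14 cells) can count in 2 zones, so the ATRA cell shares overlap, and control had 0 such cells. The clonotype shares are of chains (28 in control and 113 in ATRA). The turn therefore cannot be read as a difference between the libraries. Without TRAJ53, the V-proximal share of ATRA cells was 26.1% instead of 34.6%.

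The median TRAJ number over cells was 31 (exact interval 26 to 43, 34 chains) in control and 34 (34 to 39, 147 chains) in ATRA. Over clonotypes it was 34 in both, with intervals of 26 to 44 (28 chains) and 31 to 37 (113 chains). The difference between libraries changed sign with the unit: over rearrangements the median was 38 in control and 34 in ATRA, and over clonotypes with at least 3 UMIs per chain 27 and 34. Chains of the C-proximal zone had a median of 2 UMIs in both libraries, and those of the other zones 2 in control and 4 in ATRA. The C-proximal share of ATRA cells was 14.8% with at least 2 UMIs per chain and 13.2% with at least 3, against 18.0% with no minimum. The control share was 17.4% and 16.7% under the same limits, so the order of the libraries turned. Among cells that also had a productive beta chain, the gap was wider. The C-proximal share there was 6.67% in control (30 cells, 0.818 to 22.1) and 16.5% in ATRA (121 cells, 10.4 to 24.4). That control interval holds the ATRA value, and the ATRA interval leaves out the control value.

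Among the V-proximal segments, TRAJ57 was in 1 control cell and 5 ATRA cells, and the 5 ATRA cells carried 5 rearrangements with 5 different TRAV. TRAJ56 was in 2 control and 4 ATRA cells. TRAJ53 was in 3 control cells, 8.82%, and 15 ATRA cells, 11.3%, and the ratio of ATRA to control was 1.28 (0.362 to 6.89). Its interval holds 1, so the shares are not distinguishable at this depth. TRAJ49 was in 1 control cell and 4 ATRA cells, 3 of them with 1 rearrangement. TRAJ44, whose loops end in a codon for leucine in place of the usual phenylalanine, was in 1 control and 5 ATRA cells. The leucine ending was seen in 5 of 119 distinct CDR3 and the phenylalanine ending in 113. It was a property of TRAJ44 in these contigs, as all 5 belonged to it.

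In the middle of the row, TRAJ34 had the most cells of any segment in the ATRA library and none in control. It was in 0 of 34 control cells, which allows a share of up to 8.82% at a floor of 3 counts (exact upper limit 10.3%), and in 17 of 133 ATRA cells, 12.8%. Its ATRA share was 1.45 times that floor, and the exact interval of the ratio, which holds the error of both counts, began at 1.05. Over all V and J segments with at least 5 cells, 3.92% (2 of 51) had an interval that left out 1, and among the 12 TRAJ of that kind 8.33%, which is TRAJ34 alone. By deposited clonotypes the ratio to the floor was 1.11, with an interval from 0.770, and by rearrangements 0.825, with an interval from 0.555, so in those units the libraries were not distinguishable for TRAJ34. Its 17 cells came from 12 deposited clonotypes and 10 rearrangements with 7 TRAV of 4 families, and the rearrangement with most cells held 4. Its ATRA cells were therefore not those of a single clone. TRAJ37 was in 1 control and 8 ATRA cells, with 7 ATRA clonotypes and 5 rearrangements. TRAJ40 was in 1 control and 9 ATRA cells, but 6 of the 9 carried 1 rearrangement.

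TRAJ39 showed the widest gap between cells and clonotypes in the ATRA library. It was in 10 ATRA cells, yet these held 2 clonotypes, one with 7 cells and one with 3. Its 2 control cells held 2 rearrangements. TRAJ31 went the other way, with 3 control cells of 1 clonotype and 6 ATRA cells of 6. TRAJ26 was in 4 control cells, all with 1 rearrangement, and in 7 ATRA cells with 4. TRAJ27 was in 3 control and 2 ATRA cells.

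Toward the constant region, TRAJ12 was in 3 control cells, 8.82%, as many as TRAJ53, TRAJ31 or TRAJ27, and in 1 ATRA cell. No other C-proximal segment was in more than 4 cells of a library. TRAJ18, TRAJ9, TRAJ15 and TRAJ6 were in 3, 3, 4 and 4 ATRA cells, and TRAJ18 was also in 1 control cell. TRAJ4, the lowest number found in either library, was in 1 cell of each. The control TRAJ4 contig was marked productive but had a loop of 9 residues without the usual end, and without it the control range ended at TRAJ12. TRAJ18 joined to TRAV11 marks invariant natural killer T cells, and TRAJ33 joined to TRAV1 marks mucosal-associated invariant T cells. Neither join was found (0 control and 0 ATRA cells for each), although TRAJ18 itself was present with other TRAV, which at a floor of 3 counts allows a share of up to 8.82% of control and 2.26% of ATRA cells (exact upper limits 10.3% and 2.74%).

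The shares of the 12 TRAJ with at least 5 cells over both libraries were compared by ratio. The ratio was at least 2-fold higher in ATRA for TRAJ40 (2.30, interval 0.319 to 101) and TRAJ37 (2.05, 0.274 to 90.7), and at least 2-fold lower for TRAJ26 (0.447, 0.114 to 2.08) and TRAJ27 (0.170, 0.0142 to 1.49). All 4 intervals include 1. Over all V and J segments of both chains with at least 5 cells, 15.7% were past 2-fold higher, 11.8% lower and 27.5% in either direction, so 4 of 12 TRAJ is near that background. Which segments passed depended on the unit: counted by deposited clonotypes, TRAJ26 alone passed, at 0.277 (0.0516 to 1.49), and counted by rearrangements, TRAJ56 alone passed, at 0.371 (0.0425 to 4.44).

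Several segments drew most of their cells from 1 rearrangement, called a leading rearrangement here. Among segments with at least 3 cells, 1 CDR3 nucleotide sequence held more than 50% of the cells for 5 of 5 control segments (TRAJ53, 31, 27, 26 and 12). The same held for 8 of 23 ATRA segments (TRAJ53, 49, 40, 39, 30, 22, 18 and 9). For control TRAJ27 and 12 and ATRA TRAJ30, 22, 18 and 9 this was 2 of 3 cells. The 3 cells of each of these ATRA segments were in 3 deposited clonotypes. The 2 leading cells of TRAJ18 and of TRAJ9 were the same 2 cells. Each carried both leading rearrangements, under 2 deposited clonotypes, so these 2 of the 8 segments are not independent. TRAJ34, TRAJ37, TRAJ31 and TRAJ57 were among the ATRA segments spread over more rearrangements. With chains of at least 2 UMIs the control count fell to 2 segments, and counted over deposited clonotypes instead of cells it was 1 in control and 4 in ATRA.

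**Figure D2:**
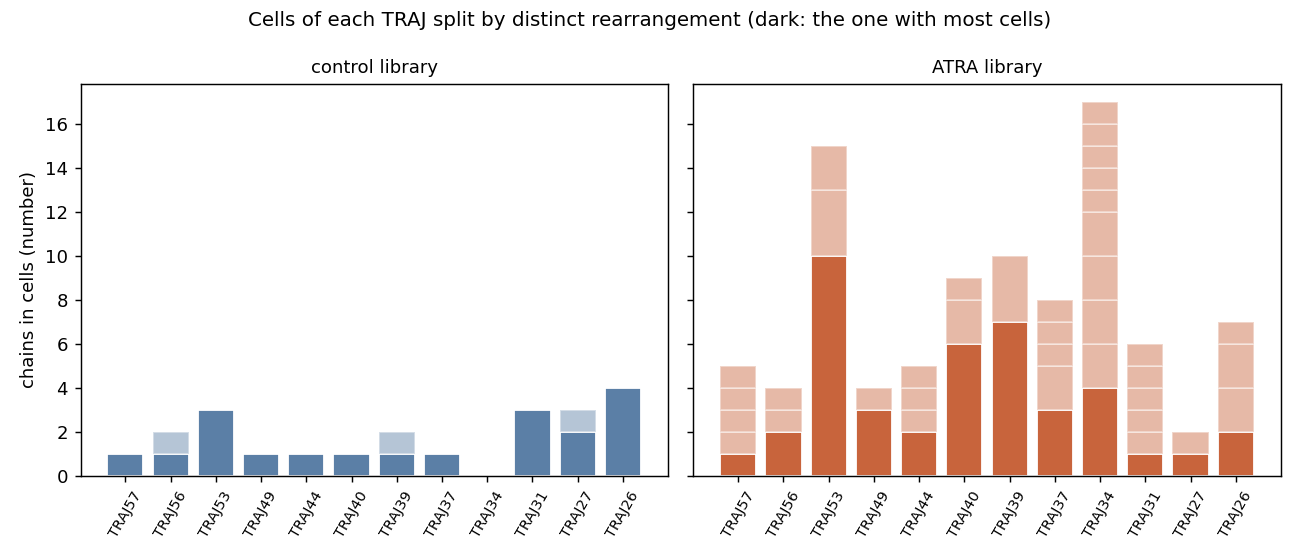
Number of chains in cells with each of the 12 TRAJ segments that had at least 5 cells over both libraries, stacked by distinct rearrangement, with the rearrangement holding most cells in dark colour at the bottom. ATRA TRAJ34 is built of 10 blocks, the largest with 4 cells, while ATRA TRAJ39 is built of 2.

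A shared alpha rearrangement need not mean a shared clone, since the beta chain joins first and separately. The 7 ATRA cells of the main TRAJ39 rearrangement all had a productive beta chain, and it was the same 1 in each. The 3 cells of the other ATRA TRAJ39 rearrangement also shared 1 beta. The 6 ATRA cells of the main TRAJ40 rearrangement had 1 beta in the 4 cells with a productive beta, and 2 cells had none. In contrast, the 10 ATRA cells of TRAJ53 form 1 had 4 different beta sequences, and its 3 control cells had 3. The 2 other TRAJ53 forms had 2 each. The 4 control cells of TRAJ26 form 1 had 5 different betas in 4 deposited clonotypes, while each TRAJ26 form in ATRA had 1. The most used TRAJ37 rearrangement was in 3 ATRA cells with 3 betas. The main TRAJ39 rearrangement thus came with 1 beta throughout, and the main rearrangements of TRAJ53, TRAJ37 and control TRAJ26 with several.

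The next comparison asked whether the J used was linked to the V it joined. Over 121 rearrangements (a rearrangement found in both libraries counts once in each), the TRAV distance and the TRAJ distance from the first TRAJ rose together. Spearman's rho was 0.42, with 0.29 over 24 control and 0.44 over 97 ATRA rearrangements. These points share libraries and, for many, a V or J segment, so rho is given as a description. Without TRAV21-DV12, the control rho was 0.11. Duplication of part of the mouse V array left near-identical copies, marked D or N in their names, and 47 of the 54 TRAV found, in 107 of the 121 rearrangements, belong to such sets. A contig may be assigned to the wrong copy, and with the mean position of the copies in place of the named one rho was 0.29 over both libraries and 0.30 in ATRA.

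Cutting the TRAV span into 3 parts of equal length showed where the link lay. The 64 rearrangements with a TRAV of the part nearest the J segments had a median TRAJ number of 39 (34 to 44), and 46.9% of them used a V-proximal J. The 32 with a TRAV of the middle part had a median of 26.5 (17 to 37) with 15.6% V-proximal, and the 25 of the far part 31 (18 to 34) with 16.0%. C-proximal J made up 9.38%, 37.5% and 32%. Near V segments therefore went with high TRAJ numbers, and the middle and far parts did not follow each other in order. In ATRA alone the medians were 38, 22 and 30.5 (54, 21 and 22 rearrangements), and in control 43.5, 27 and 37 (10, 11 and 3).

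**Figure D3:**
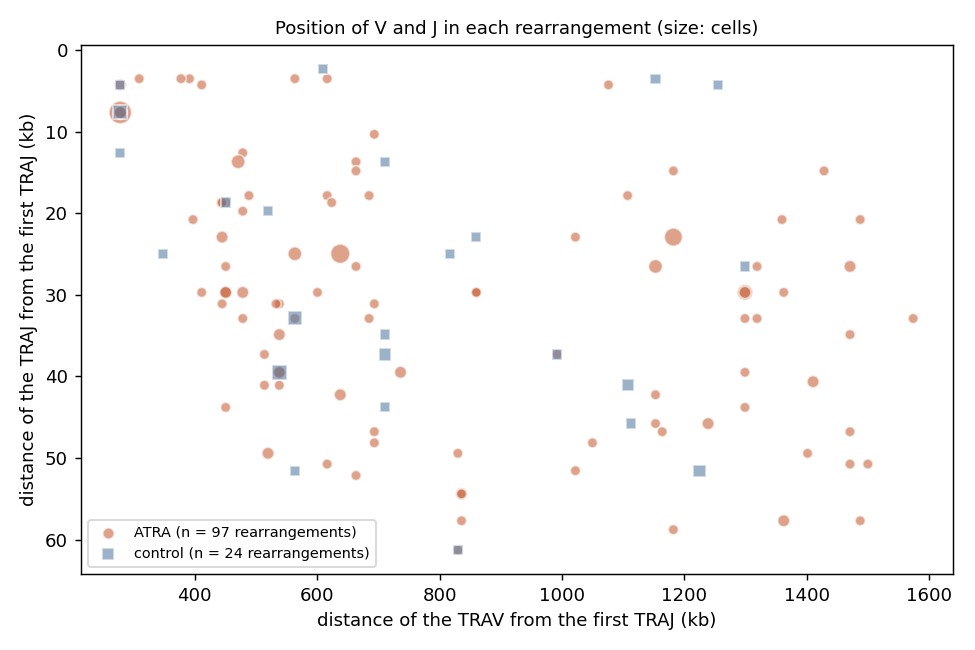
Distance of the TRAV (x axis, kb) and of the TRAJ (y axis, kb, increasing downward toward the constant region) from the first TRAJ for each rearrangement, with symbol size showing cells, for control (24, squares) and ATRA (97, circles). Rearrangements whose TRAV lies within 400 kb are nearly all at the top, and those farther away are spread over the whole row.

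The tightest pairing was at the V end next to the J row. The 12 rearrangements whose TRAV lay within 400 kb of the first TRAJ used 6 TRAV, had a median TRAJ number of 53 and ranged from 39 to 57, and 11 of them used a V-proximal J. The 109 others had a median of 32, ranged from 4 to 58, and 28 of them used a V-proximal J. TRAV21-DV12 lies 278 kb from the first TRAJ, at chr14:53876016-53876752, and its 7 rearrangements used TRAJ56, TRAJ56, TRAJ53 in 4, and TRAJ50. TRAV19, TRAV3-4 and TRAV14-3, also in this stretch, each joined TRAJ57. The limit of 400 kb was chosen after the values were seen.

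Other V segments went with the low end. The 3 rearrangements of TRAV7N-6 used TRAJ15, TRAJ4 and TRAJ4, and the 3 of TRAV6N-7 used TRAJ9, TRAJ9 and TRAJ6. These V segments lie 830 kb and 836 kb from the first TRAJ. By family, the 21 TRAV6 rearrangements split into 7, 6 and 8 over the V-proximal, middle and C-proximal zones, and the 20 TRAV7 rearrangements into 3, 9 and 8. The 11 TRAV14 rearrangements split into 2, 9 and 0, and the 14 TRAV9 rearrangements into 3, 9 and 2. These V segments were also chosen after their values were seen, and each rests on few rearrangements.

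Cells with more than 1 alpha contig let the TRAJ of both alleles be compared. In ATRA, 14 cells had 2 productive TRA, forming 11 distinct pairs, and control had 0 such cells. The pairs differed in TRAJ number by a median of 13 (range 5 to 32), and 4 of 11 (36.4%, exact interval 10.9 to 69.2) lay within 10 of each other. Among 4645 pairs of productive ATRA rearrangements taken across cells, the median difference was 15 and 36.6% lay within 10. With 11 pairs the interval is too wide to tell the productive pairs from rearrangements at large.

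Nonproductive contigs, in which the join broke the reading frame or the chain was incomplete, gave another view. A productive chain stood beside a nonproductive TRAJ contig in 49 ATRA cell pairs, which formed 38 distinct pairs. Their median difference was 8 (range 1 to 41), and 24 of 38 (63.2%, exact interval 46.0 to 78.2) lay within 10. Of the 38, 19 (50%) were in the same zone. Pairs of productive ATRA rearrangements across cells had 36.6% within 10 and 35.6% in the same zone. That is not a like background, as V-proximal J made up 42.4% of nonproductive ATRA contigs and 30.9% of productive ATRA rearrangements. No background of productive with nonproductive chains was computed, so likeness within a cell was not tested. Spearman's rho between the 2 TRAJ numbers was 0.48 over the 38 pairs, given as a description because some pairs share a chain. With nonproductive contigs of at least 2 UMIs, 15 of 24 pairs (62.5%) lay within 10. Without nonproductive contigs that repeat a productive join of the library, 23 of 36 (63.9%) did. The 3 control pairs differed by 4, 1 and 5.

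**Figure D4:**
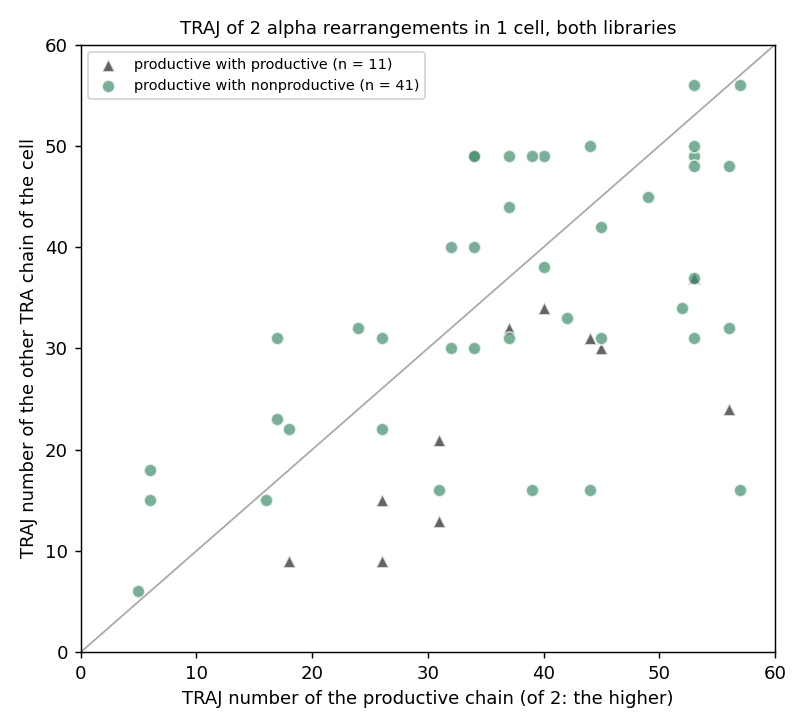
TRAJ number of the 2 alpha chains of a cell, for distinct pairs of a productive and a nonproductive chain (41 circles over both libraries, productive chain on the x axis) and of 2 productive chains (11 triangles, the higher number on the x axis), with the line of equal numbers. Circles scatter about the line from the low to the high end. Those with TRAJ16 on the y axis lie far below it, and others stand away from it too, such as TRAJ56 with TRAJ32 below and TRAJ34 with TRAJ49 above.

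Examples spanned the row. The ATRA TRAJ49 clone of 3 cells had a nonproductive TRAJ45 contig in each cell. The ATRA TRAJ39 rearrangement of 3 cells had nonproductive TRAJ49, and a TRAJ5 chain stood beside TRAJ6. Among pairs of a productive and a nonproductive chain, the 2 largest differences, 41 and 28, came from 1 nonproductive join, TRAV12D-2 with TRAJ16. It was in 7 ATRA cells, 5 of them among the 7 cells of the main TRAJ39 rearrangement and 2 outside it, with 1 to 8 UMIs. A diploid cell has 2 alpha alleles, yet 3 ATRA cells held more than 2 TRAJ contigs, and 2 of the 14 cells with 2 productive TRA also held 2 productive betas. Without the cells over 2 TRAJ contigs, 23 of 33 productive and nonproductive pairs (69.7%) and 4 of 8 productive pairs (50%) lay within 10. The part of doublets or free RNA in the remaining pairs was not tested.

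The last question was how much of the loop the J segment supplied. The stretch shared by rearrangements of different TRAV families could be rebuilt for 28 of the 36 segments and ranged from 22 bases (TRAJ43) to 33 (TRAJ57), with a median of 29. The annotated segments were 27 to 36 bases longer than these stretches (median 33). The J segment continues past the loop, and a rebuilt stretch can hold added bases or fall short of the germline end. How much each gave to this spread was not tested. TRAJ53 was among the 8 segments without one, because all its rearrangements used 1 V.

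The J part of the loop had a median of 27 bases in both libraries (24 to 30 over 21 control and 26 to 28 over 87 ATRA rearrangements). That was 69.0% of the CDR3 in control and 64.4% in ATRA, with a range over both of 53.8% to 83.3%. The highest was a TRAJ13 loop with TRAV7D-2. Its stretch of 30 bases was held by 2 rearrangements and was 23 bases when 3 had to share it, so it may include bases not from the J. By its definition, at least 2 rearrangements of each segment hold the full stretch, and at most 10 bases of it were missing in the others. Where the V side could be rebuilt in the same way (82 rearrangements), it gave a median of 11 bases, and a median of 3 bases (range 0 to 9) matched neither side. In 18 of the 82, 0 bases were left over. The median CDR3 was 42 bases. Its length had an SD of 3.97 bases over both libraries, and the J part one of 3.17, the V part 2.51 and the remainder 2.59. Across rearrangements, the J part and the CDR3 length had a Spearman's rho of 0.62, a description in which the J part is contained in the length. TRAJ number and J part had a rho of 0.16.

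The shortest and longest J parts are shown here, with the J part in capitals, because they are the extremes found:
TRAJ31 with TRAV14D-1, ATRA, 17 J bases: tgtgcagcaaggtATAACAGAATCTTCTTT
TRAJ57 with TRAV9-2, ATRA, 33 J bases: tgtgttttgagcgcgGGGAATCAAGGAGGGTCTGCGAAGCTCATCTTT
The TRAJ57 stretch of 33 bases was held by 2 rearrangements and was 30 bases when 3 had to share it. It may therefore include bases not from the J. TRAJ31 had a J part of 27 bases in other cells, and TRAJ57 had shorter J parts elsewhere, so the spread lay within segments as well as between them. The 2 largest clonal TRAJ39 and TRAJ40 rearrangements of ATRA were:
TRAJ39 with TRAV6-6, ATRA, 7 cells: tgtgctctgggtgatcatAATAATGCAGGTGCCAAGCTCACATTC
TRAJ40 with TRAV3D-3, ATRA, 6 cells: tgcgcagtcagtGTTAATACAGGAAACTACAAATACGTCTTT
The TRAJ39 loop lacked 2 bases of its shared stretch, and the TRAJ40 loop was one of the 3 that held its full stretch.

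**Figure D5:**
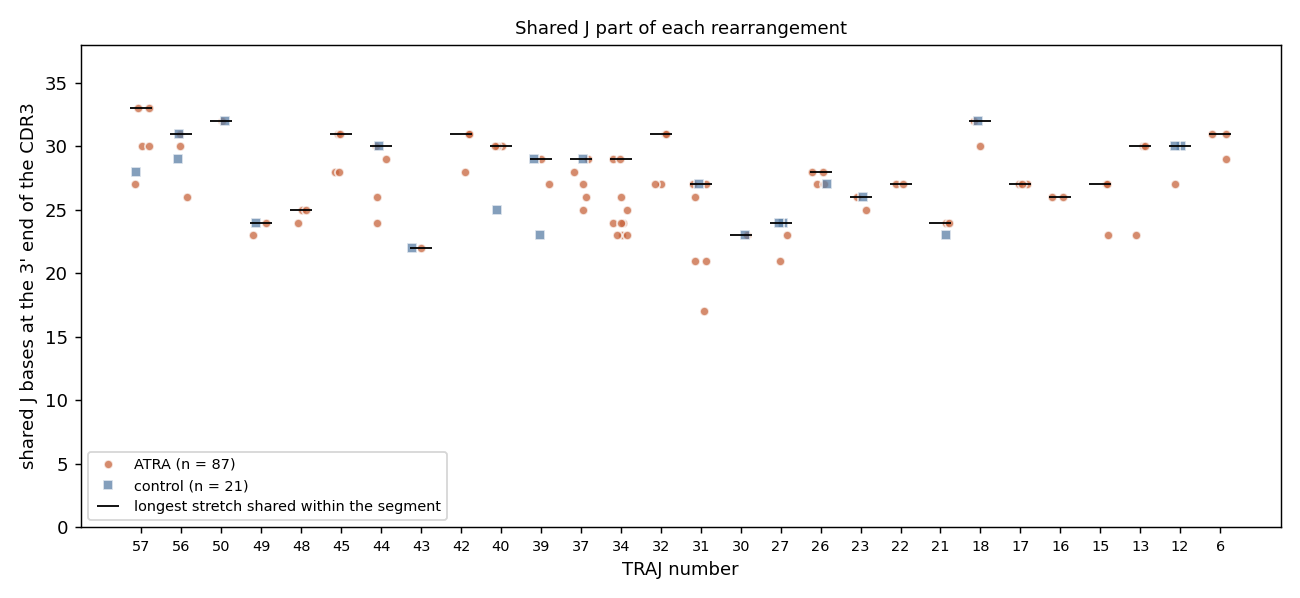
Number of CDR3 bases that match the shared J stretch from the 3′ end, for each rearrangement of the 28 TRAJ with such a stretch (control squares, 21; ATRA circles, 87), with the full stretch as a black bar. At least 2 points per segment sit on the bar by its definition, and TRAJ31 holds the lowest point at 17 bases.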

How the data were processed

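The deposited tables, 1 per library, list assembled contigs with counts of UMIs and of reads per contig, not normalized, per the file headers. Per the submitters' processing notes, the tools were Cell Ranger 3.1.0 and bcl2fastq 2.20.0, with build GRCm38. All contigs were marked as cells (0 removed), and no doublet caller was run. TRAJ shares were computed over cells, deposited clonotypes and distinct rearrangements with Python 3.11.15, pandas 2.3.3 and scipy 1.17.1. Intervals are exact binomial (Clopper-Pearson), order-statistic or conditional, at 95%, and a count of 0 was given a floor of 3 counts. No germline sequence of the locus was used here: the J part was the longest 3′ stretch shared by at least 2 rearrangements of different TRAV families, which can include added bases by chance and can fall short of the germline end. This replaced the planned germline match. The length of the J part and the coverage of the intervals were tested on simulated data, and the V part and the remainder were not. Coverage was tested on independent draws, so it does not extend to cells of 1 clone, which are not independent. The simulation of the J part gave each segment at least 3 rearrangements, while some shared stretches here rested on 2. Named segments were those with at least 5 cells over both libraries, the 3 most used by clonotypes, the ends of the range and those with a leading rearrangement. TRAJ33 was named for its join with TRAV1, which was set beforehand. TRAJ15, TRAJ13, TRAJ6, TRAJ5, TRAJ16, TRAJ32, TRAJ43, TRAJ45 and TRAJ50 were named after their values were seen. Members and lists were chosen with earlier results of these data known. Alternatives were minimum UMIs, paired cells, extra chains, other units, zones and V positions.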

Additional observations from a re-analysis of the deposited data

Results flagged for a closer look

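Contigs with a TRAJ that were not marked productive lie outside the counts of TRAJ use and were looked at because they can come from the other allele of a cell. The control library held 9 such contigs in 9 cells with 30 UMIs, and the ATRA library 66 in 63 cells with 230 UMIs. They used 7 and 28 TRAJ segments, with median numbers of 42 and 37.5. TRAJ31 and TRAJ56 had the most in control, with 2 contigs each, and TRAJ49 in ATRA with 8. In ATRA, 28 of the 66 (42.4%) were V-proximal, 27 (40.9%) middle and 11 (16.7%) C-proximal. In control the split was 5, 4 and 0. Of the ATRA contigs, 6 had no V segment. The CDR3 of a productive contig of the same library was repeated by 1 control contig (14 UMIs) and 5 ATRA contigs (55 UMIs), in cells other than those of that productive contig.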

How the results depend on the processing

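No paired analysis was possible because each group had 1 library and no test between groups was run. Of 145 alternative values, 127 stayed within the error or limit set for the result and 18 moved. For a share or median the limit was its own interval, which is wide in control, and the alternatives reuse the same cells. A control C-proximal share of 6.67% with paired cells, against 14.7% in all cells, thus counted as staying. The count of 127 therefore does not show that the control values are stable. Differences between the libraries were not tested, and several turned with the unit. The V-proximal share was 37.5% in control and 30.9% in ATRA over rearrangements, which count chains, while an ATRA cell with 2 chains can count in 2 zones. The TRAJ31 ratio was 0.511 over cells and 1.66 over clonotypes. With at least 3 UMIs per chain, the control library used 9 TRAJ segments, 1 control segment (5 without a minimum) had a leading rearrangement with over 50% of at least 3 cells, the control V-J rho was 0.44 and 1 of 8 segments passed 2-fold. With at least 2 UMIs, 2 control segments had one. Over deposited clonotypes that count was 1 in control and 4 in ATRA (8 over cells), and with paired cells alone 5 in ATRA. Leaving out TRAV with a D or N copy gave a rho of 0.77 (n = 4) in control, 0.61 (n = 10) in ATRA and 0.57 (n = 14) in both. Mean copy positions gave 0.30 in ATRA and 0.29 in both, and control without TRAV21-DV12 gave 0.11. Without TRAJ53 the ATRA V-proximal share was 26.1%. The count past 2-fold was 1 of 7 by rearrangements, 1 of 9 by deposited clonotypes and 2 of 5 with at least 10 cells. The cause of these shifts was not tested. The mean copy position, the results without TRAV21-DV12 or TRAJ53, the clonotype ratio and the settings for pairs of chains in 1 cell were chosen after seeing the data. Depth limits the control library most, where 1 cell is 2.94% of the total.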
